A study of Mus musculus with 6 samples.

Results

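The 9 genes described here are Plet1, Ly6a, Anxa1, Anxa3, Clu, Msln, Areg, Ereg and Hbegf, taken by gene name from the 54532 genes of the deposited table. They are known from the fetal-like state that gut epithelium takes on during repair, or as ligands of the EGF receptor. They were chosen with the difference between the 2 genotypes in view, so their values in that comparison are given as a description and were not tested. RNA came from whole colons of C57BL/6 mice at postnatal day 56, in 3 libraries labelled IL10-KO (genotype IL10-/-) and 3 labelled WT (wild type); strain, age and tissue were shared by both groups. The targeted allele is not given in the sources used here, and it is not stated whether each library is a different mouse; p-values therefore speak only for variation among these libraries, which may be technical. Whole colon holds muscle, nerves and blood cells beside epithelium, and in such bulk RNA fewer cells of a type and less RNA per cell cannot be told apart.

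After damage, surviving cells of the gut epithelium can switch off much of the crypt stem cell programme and switch on genes seen in the fetal gut, a state linked to the co-activators YAP and TAZ. Ly6a (Sca-1), Anxa1, Clu and Msln are among the genes used to recognise it, and Plet1 marks repairing colon epithelium in mice. Amphiregulin (Areg), epiregulin (Ereg) and heparin-binding EGF-like growth factor (Hbegf) are made as membrane-anchored precursors, shed by ADAM proteases, and bind EGF receptor family members to drive epithelial growth. None of the 9 is restricted to epithelium: Ly6a is also found on lymphocytes and endothelium, Anxa1 and Anxa3 in neutrophils, Msln in mesothelium, and the ligands in several immune and stromal cells.

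Levels are in FPKM (fragments per kilobase of gene, scaled by the authors). They rest on 13107941 to 15797928 reads a library, recovered from the FPKM steps. The library sizes implied by those steps were not these read totals. They were 12622475, 15725863 and 16304178 in libraries 1 to 3 labelled IL10-KO, and 16139338, 13202733 and 12924372 in WT libraries 1 to 3. Recovered totals, in the same order, were 14262740, 14651559 and 14235679, and 13107941, 15797928 and 13747377. How the sizes were set is not known here. Il10 itself was at 13.8, 10.6 and 14.5 FPKM in libraries 1 to 3 labelled IL10-KO, against 0.757, 0.173 and 0.177 FPKM in WT libraries 1 to 3. Reads over the whole gene were thus more numerous in the libraries labelled IL10-KO, so no loss of its RNA was seen in them; the deleted part of the gene is not known here, and all directions that follow depend on the labels being right. The summed FPKM of 10 epithelium markers was 8254 to 12075 in the libraries labelled IL10-KO and 1984 to 12122 in the WT ones, lowest in WT library 3. Over 10 smooth muscle markers the sum was 183 to 1040 in the libraries labelled IL10-KO and 1306 to 9113 in the WT ones. WT library 3 had the highest muscle sum and the highest mitochondrial share of reads, 43.4%, against 8.61% to 22.0% in the libraries labelled IL10-KO and 11.7% and 20.3% in the other WT libraries. The 14 neutrophil markers summed to 970 to 1898 FPKM in the libraries labelled IL10-KO and to 2.47 to 127 FPKM in the WT ones. Whether these shifts in tissue make-up have a part in the results below was not tested.

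**Figure D1:**
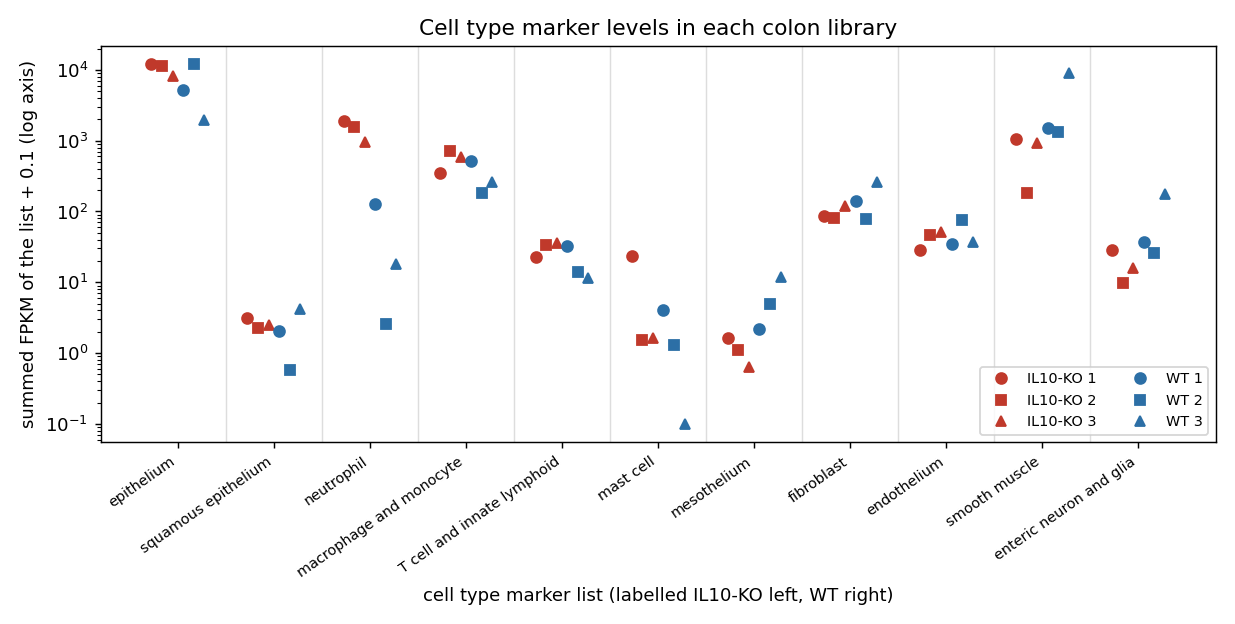
Summed FPKM plus 0.1 (log axis) of each cell type marker list, 1 point per library, red for the libraries labelled IL10-KO and blue for WT, with the marker shape giving the replicate. Neutrophil, smooth muscle and mesothelium sums did not overlap between the labels. In libraries labelled IL10-KO the neutrophil sums were higher, and the smooth muscle and mesothelium sums were lower. The lowest epithelium sum (1984) and the highest smooth muscle sum (9113) were both in WT library 3.

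Promoter sequences are shown for 3 of the 9 genes. They were taken from the RefSeq table (build GRCm38.p6), each running from 250 bases before to 50 bases after the annotated start. Those of the other genes are not shown, whether or not the table holds them. The 3 shown belong to the gene with the widest difference (Plet1), the annexin with the wider difference (Anxa1) and the most abundant ligand (Areg). Capitals mark every match on either strand to 6 searched motifs: the TATA box TATAAA, AP-1 TGANTCA, the cAMP response element TGACGTCA, TEAD GGAATG, STAT TTCNNNGAA and the NF-kB consensus. No matches overlapped each other. Plet1 is at chr9:50494275-50494574 on the plus strand, Anxa1 at chr19:20390622-20390921 on the minus strand and Areg at chr5:91139349-91139648 on the plus strand. The RefSeq start of Anxa1 lies 273 bases inside the gene as the deposited table places it, so that whole window is within the table's gene span; for Plet1 and Areg the starts coincide.
Plet1: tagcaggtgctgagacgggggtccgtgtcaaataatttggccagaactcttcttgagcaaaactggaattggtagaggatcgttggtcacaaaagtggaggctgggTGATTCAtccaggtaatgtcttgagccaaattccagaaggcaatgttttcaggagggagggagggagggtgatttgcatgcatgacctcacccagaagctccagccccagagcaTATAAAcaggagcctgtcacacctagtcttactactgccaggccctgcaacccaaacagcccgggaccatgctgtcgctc
Anxa1: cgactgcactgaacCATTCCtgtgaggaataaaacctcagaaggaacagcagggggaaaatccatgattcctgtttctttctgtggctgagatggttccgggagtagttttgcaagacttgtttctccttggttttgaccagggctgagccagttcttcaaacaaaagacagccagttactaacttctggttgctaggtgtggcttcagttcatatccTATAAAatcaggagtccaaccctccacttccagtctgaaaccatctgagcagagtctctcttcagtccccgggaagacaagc
Areg: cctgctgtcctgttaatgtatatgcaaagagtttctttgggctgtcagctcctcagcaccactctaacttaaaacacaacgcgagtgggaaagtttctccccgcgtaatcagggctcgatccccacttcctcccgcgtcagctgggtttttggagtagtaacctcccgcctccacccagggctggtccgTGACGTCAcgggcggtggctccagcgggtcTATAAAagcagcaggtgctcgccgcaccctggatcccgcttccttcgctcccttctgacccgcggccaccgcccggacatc
A TATAAA began 30, 32 and 31 bases before the start in Plet1, Anxa1 and Areg, a motif held by 13.6% of the 32851 promoters of the table. The Plet1 window also held the AP-1 match TGATTCA, 144 bases before the start (7.81% of promoters hold the motif). In Areg the element TGACGTCA began 61 bases before the start (1.79% of promoters). Anxa1 carried the TEAD motif on the opposite strand, 236 bases before the start (14.7% of promoters). No match to the STAT motif (8.30% of promoters) or the NF-kB motif (4.51%) was found in these 3 windows, which says only that these letters are not there. A match describes the sequence and is not a bound site.

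All 9 genes passed the filter of a mean of at least 1 FPKM over the 6 libraries, although Msln passed mainly through WT library 3. Every library labelled IL10-KO lay above every WT library for 3 of the 9, namely Plet1, Ly6a and Anxa1, while 8.84% of all 12668 tested genes had that order. None lay below every WT library (0 of 9, against 7.89% of tested genes), and for the other 6 genes the groups overlapped. Log2 fold changes (labelled IL10-KO minus WT, computed from log2(FPKM + 1), so that changes of low genes come out too small) were positive for 7 genes and negative for Msln and Ereg, and their median was 1.29 against 0.04 over all tested genes. Since the genes were chosen on this contrast, nothing is read from these shares. The 9 genes did not move as 1 set. Plet1 stood far apart, and Anxa1 had higher values without overlap. Ly6a was separated in FPKM but overlapped with trimmed mean scaling, TPM or quantile normalization. The group means of Clu, Hbegf, Ereg and Areg lay within the spread of the libraries, and the groups of Anxa3 and Msln overlapped. Of the 9 genes, 5 had their highest value in library 2 labelled IL10-KO.

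**Figure D2:**
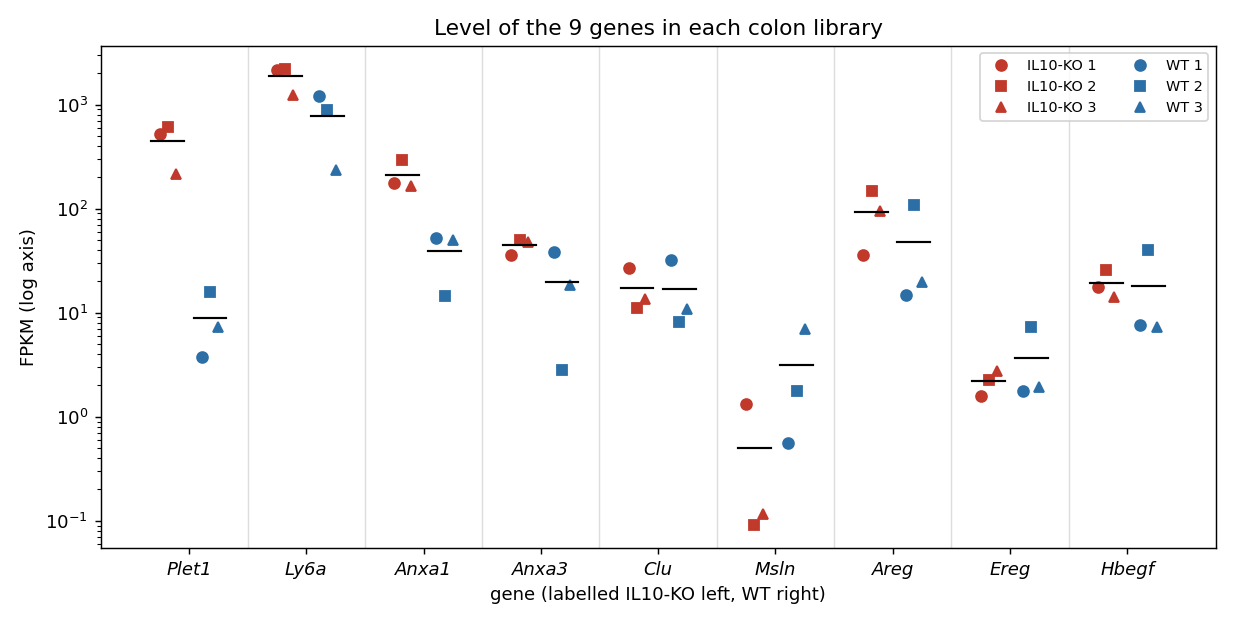
FPKM (log axis) of the 9 genes in each library, with the libraries labelled IL10-KO (red) left of WT (blue), shapes for replicates and black lines for group means (n = 3). Plet1, Ly6a and Anxa1 have all red points above all blue ones, and the red and blue points of the other 6 genes overlap.

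Plet1 (ENSMUSG00000032068; GRCm38 chromosome 9, 50494525 to 50505482, plus strand) encodes a surface glycoprotein first described in placenta and found in repairing colon epithelium and hair follicle. It was at 523, 612 and 217 FPKM in libraries 1 to 3 labelled IL10-KO, against 3.76, 16.0 and 7.23 FPKM in WT libraries 1 to 3. The lowest of the libraries labelled IL10-KO, library 3, was still 13.6-fold above the highest WT library, library 2. It averaged 451 ± 207 FPKM in libraries labelled IL10-KO and 8.99 ± 6.30 FPKM in WT (SD, n = 3 each), a ratio of 50.1 and a log2 fold change of 5.56 (SE 0.59). Only 0.0553% of tested genes had a higher log2 fold change. The antisense gene Plet1os overlaps it on the other strand and was at 24.8, 17.8 and 9.16 FPKM in libraries labelled IL10-KO, against 0.597, 1.03 and 0.746 FPKM in WT; without a stated strand setting, reads of the pair cannot be told apart. Squamous epithelium of the anal margin can be caught in colon samples. Of the 11 squamous epithelium markers, summed levels were 2.16 to 3.08 FPKM in the libraries labelled IL10-KO and 0.479 to 4.05 FPKM in WT, and Krt4, Trp63 and Ivl had no read in any library. Krt5 and Krt6a had reads in libraries labelled IL10-KO and none in WT, and Dsg3 had reads only in WT. Only 1 of these markers was high enough to test, and its log2 fold change was -0.19. Krt13, a keratin gene on that list too low to test, was at 0.827, 1.12 and 0.741 FPKM in libraries labelled IL10-KO. In WT it was at 0.204, 0 and 0.255 FPKM, without overlap. The part of such tissue in the Plet1 values was not tested.

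Ly6a (ENSMUSG00000075602; chromosome 15, 74994877 to 74998031, minus strand), the GPI-anchored surface protein Sca-1, was the most abundant of the 9. It was at 2172, 2215 and 1246 FPKM in libraries 1 to 3 labelled IL10-KO, against 1216, 897 and 238 FPKM in WT libraries 1 to 3. The groups were barely apart, with library 3 labelled IL10-KO only 1.03 times WT library 1, and WT library 3 far below the rest. With trimmed mean scaling, TPM or quantile normalization the groups overlapped. Library 3 labelled IL10-KO had 24488 Ly6a reads of 14235679 recovered, and WT library 1 had 23642 of 13107941. The order of these libraries therefore also depends on the library size used. Ly6a averaged 1878 ± 547 FPKM in libraries labelled IL10-KO and 783 ± 499 FPKM in WT (SD, n = 3 each). The log2 fold change was 1.51 (SE 0.67), and without WT library 3 it was 0.80. Neighbouring Ly6 genes are close in sequence, so reads may be shared among them. Ly6a is also carried by endothelium, whose markers summed to 28.5 to 50.5 FPKM in the libraries labelled IL10-KO and 34.8 to 75.5 FPKM in WT, and by lymphocytes, whose T cell and innate lymphoid markers summed to 22.7 to 35.7 FPKM in libraries labelled IL10-KO and 11.3 to 32.7 FPKM in WT; their part in the Ly6a values was not tested.

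Annexins are proteins that bind membranes in the presence of calcium. Anxa1 (ENSMUSG00000024659; chromosome 19, 20373428 to 20390944, minus strand), whose product limits leukocyte recruitment and aids wound closure, was at 175, 291 and 167 FPKM in libraries 1 to 3 labelled IL10-KO, against 51.9, 14.6 and 50.4 FPKM in WT libraries 1 to 3. The groups did not overlap, and the lowest value of those labelled IL10-KO was 3.22-fold above the highest WT value. Its mean was 211 ± 69.3 FPKM in libraries labelled IL10-KO and 39.0 ± 21.1 FPKM in WT (SD, n = 3 each), with a log2 fold change of 2.56 (SE 0.55). Anxa3 (ENSMUSG00000029484; chromosome 5, 96793339 to 96845966, plus strand) reached 36.1, 49.6 and 47.5 FPKM in libraries labelled IL10-KO, against 37.9, 2.81 and 18.5 FPKM in WT. WT library 1 was inside the range of the libraries labelled IL10-KO, and the low WT mean came mostly from library 2. Its log2 fold change was 1.66 (SE 0.80), 0.71 without WT library 2 and 2.38 without WT library 1. The neutrophil marker sums were 1898, 1579.5 and 969.5 FPKM in the libraries labelled IL10-KO and 127, 2.47 and 18.1 FPKM in WT. In WT libraries 1 and 3 these sums were mostly Ly6g, at 124 and 16.0 FPKM. Anxa1 and Anxa3 both took the same order as the sums among the WT libraries, and neither did among those labelled IL10-KO. There Anxa1 was highest in library 2, and Anxa3 was lowest in library 1, the library with the highest sum. S100a9, Cxcr2, Mmp8, Retnlg and Ngp had no read in any WT library, and the part of neutrophil RNA in the annexin values was not tested.

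Clu (ENSMUSG00000022037; chromosome 14, 65968483 to 65981547, plus strand) encodes clusterin, a secreted chaperone that marks a rare revival stem cell in injured mouse intestine. It was at 27.0, 11.1 and 13.6 FPKM in libraries 1 to 3 labelled IL10-KO, against 31.8, 8.20 and 10.9 FPKM in WT libraries 1 to 3. Library 1 of each label was the high one, and the means of 17.2 ± 8.59 FPKM in libraries labelled IL10-KO and 17.0 ± 12.9 FPKM in WT (SD, n = 3 each) lay well within the spread. The log2 fold change of 0.15 (SE 0.55) turned negative with quantile normalization (-0.01), relative to the epithelium markers (-0.88), with array weights (-0.82), and without library 1 labelled IL10-KO (-0.21), WT library 2 (-0.21) or WT library 3 (-0.03). Msln (ENSMUSG00000063011; chromosome 17, 25748614 to 25754327, minus strand), mesothelin, a GPI-anchored protein of mesothelium, was the least abundant. It was at 1.31, 0.0902 and 0.116 FPKM in libraries labelled IL10-KO, against 0.557, 1.76 and 7.03 FPKM in WT. These values rested on 35, 3 and 4 reads in libraries labelled IL10-KO and on 19, 49 and 192 reads in WT, so libraries 2 and 3 labelled IL10-KO were at or just over the floor of 3 reads. Its log2 fold change was -1.20 (SE 0.63), -0.55 without WT library 3 and -2.91 with a pseudocount of 0.01. The 8 mesothelium markers summed to 0.526 to 1.55 FPKM in the libraries labelled IL10-KO and 2.11 to 11.6 FPKM in WT, with the highest sum in the same WT library 3, and Bnc1 had no read in the libraries labelled IL10-KO; their part in the Msln values was not tested.

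The 3 EGF receptor ligands shared a pattern in which WT library 2 lay within or above the range of the libraries labelled IL10-KO, far from WT libraries 1 and 3. Areg (ENSMUSG00000029378; chromosome 5, 91139599 to 91148432, plus strand) had 35.9, 147 and 95.7 FPKM in libraries 1 to 3 labelled IL10-KO, against 14.8, 108 and 19.8 FPKM in WT libraries 1 to 3. The mean was 92.8 ± 55.4 FPKM in libraries labelled IL10-KO and 47.4 ± 52.1 FPKM in WT (SD, n = 3 each), and its log2 fold change 1.29 (SE 0.84). Without WT library 2 that change was 2.15, and without WT library 1 it was 0.77. Hbegf (ENSMUSG00000024486; chromosome 18, 36504929 to 36515805, minus strand) was at 17.8, 25.6 and 14.1 FPKM in libraries labelled IL10-KO, against 7.57, 39.9 and 7.24 FPKM in WT. WT library 2 was the highest of all and the other WT libraries the lowest, so that the log2 fold change of 0.46 (SE 0.64) was 1.22 without WT library 2 and 0.07 without WT library 3. It was -0.53 relative to the epithelium markers. Ereg (ENSMUSG00000029377; chromosome 5, 91074622 to 91093646, plus strand) was low throughout, at 1.57, 2.28 and 2.76 FPKM in libraries labelled IL10-KO, against 1.77, 7.23 and 1.93 FPKM in WT. The 3 libraries labelled IL10-KO and WT libraries 1 and 3 lay close together, and WT library 2 alone stood above them. Its log2 fold change was -0.36 (SE 0.45), 0.15 without WT library 2 and 0.13 with array weights.

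Areg and Ereg lie next to each other on chromosome 5, with 46.0 kb and 0 protein-coding genes wholly between them, in a cluster with 2 further ligand genes, Epgn 112 kb before and Btc 218 kb after the start of Areg. The neighbours were not at like levels. Epgn, epithelial mitogen, was at 3.42, 1.37 and 0.781 FPKM in libraries labelled IL10-KO, against 0.103, 0.377 and 0.728 FPKM in WT. Btc, betacellulin, was at 0.719, 2.35 and 3.58 FPKM in libraries labelled IL10-KO, against 0.809, 1.12 and 1.39 FPKM in WT. Summed over the 11 EGF family ligand genes, levels were 65.3, 186 and 124 FPKM in libraries labelled IL10-KO, against 28.0, 173 and 33.4 FPKM in WT. Areg made up 55.0%, 78.8% and 77.4% of that sum in the libraries labelled IL10-KO, and 53.0%, 62.0% and 59.4% in WT. Ereg made up 2.41%, 1.22% and 2.24% in the libraries labelled IL10-KO and 6.33%, 4.17% and 5.79% in WT. Its share did not overlap between the labels while its FPKM did, and a share depends on the other genes in the sum. Immune sources of Areg were read from the T cell list above and from 7 mast cell markers, which summed to 23.5, 1.41 and 1.54 FPKM in the libraries labelled IL10-KO and 3.95, 1.21 and 0 FPKM in WT. Macrophage and monocyte markers, which mark a source of Hbegf and Ereg, summed to 350 to 710 FPKM in the libraries labelled IL10-KO and 180 to 515 FPKM in WT. The part of these cells in the ligand values was not tested.

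**Figure D3:**
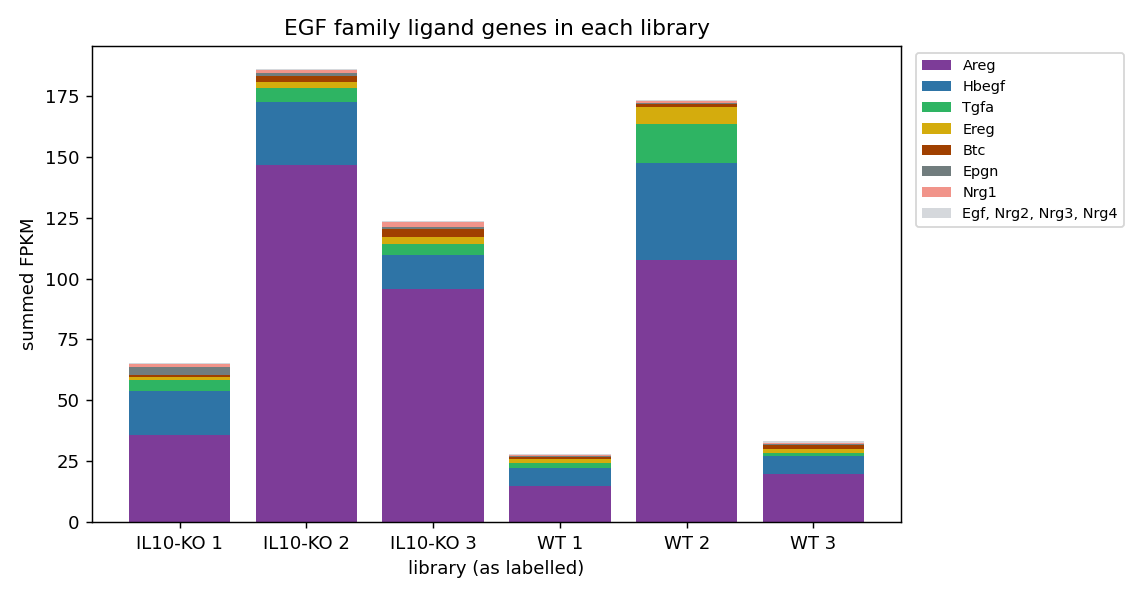
Summed FPKM of the 11 EGF family ligand genes in each library, stacked by gene, with the libraries labelled IL10-KO left of WT. Areg is the widest part of every bar, and WT library 2 (173 FPKM) reaches the height of library 2 labelled IL10-KO (186 FPKM) while WT libraries 1 and 3 stay at 28.0 and 33.4 FPKM.

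Because the epithelium markers differed so widely among the WT libraries, the 9 genes were also set against the mean FPKM of those markers in the same library. On that scale Plet1 alone stayed above every WT library, with a log2 fold change of 4.55. Anxa1 (1.48), Anxa3 (0.54), Ly6a (0.44) and Areg (0.26) kept positive values with overlapping groups, and Clu (-0.88) and Hbegf (-0.53) had negative ones. Ereg (-1.07) and Msln (-1.85) lay below every WT library, but only narrowly. Scaled Msln was 0.7832 in library 1 labelled IL10-KO against 0.7854 in WT library 1. Scaled Ereg was 2.414 in library 3 labelled IL10-KO against 2.498 in WT library 1. How many of all tested genes take that order on this scale was not determined. The factor was 1.67, 1.59 and 1.14 in libraries 1 to 3 labelled IL10-KO, and 0.709, 1.68 and 0.275 in WT libraries 1 to 3. Part of each gene may be made outside epithelium, for which this scale holds no correction.

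**Figure D4:**
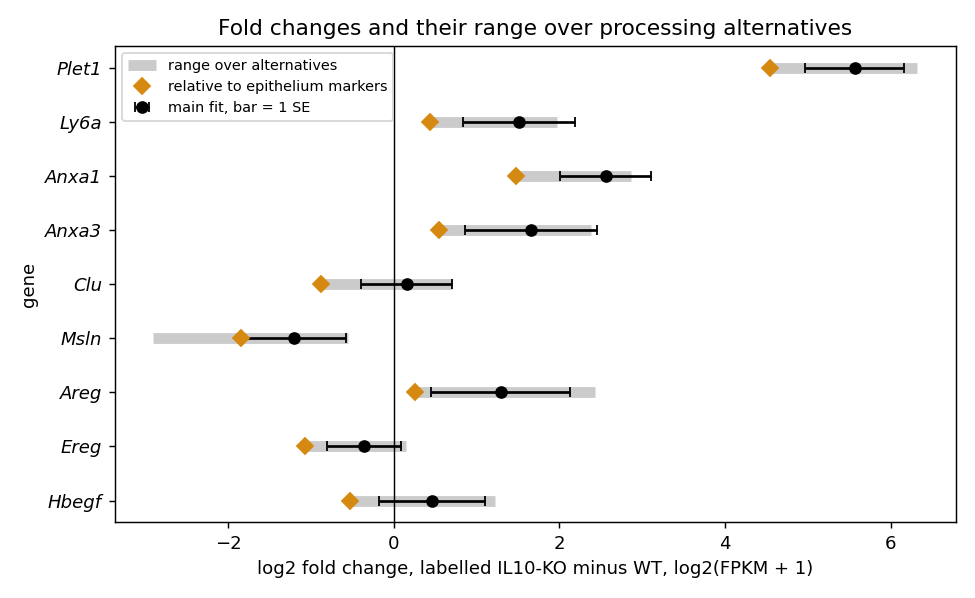
Log2 fold change (labelled IL10-KO minus WT, log2(FPKM + 1)) of each gene, with black points and bars for the fit with all 6 libraries and its SE, grey bars for the range over the processing alternatives and diamonds for values relative to the epithelium markers. Plet1 lies between 4.55 and 6.32 throughout, and the ranges of Clu, Ereg and Hbegf cross 0.

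Among themselves the 9 genes fell into unlike profiles over the 6 libraries. Likeness was measured as the root mean square difference of log2(FPKM + 1) after subtracting each gene's own mean, over 6 libraries that share tissue and depth differences. The closest pairs were Ereg with Hbegf (0.58), Anxa1 with Anxa3 (0.68) and Areg with Hbegf (0.70), and the most distant was Msln with Plet1 (3.50). Outside the 9, the tested genes nearest to Plet1 were Sprr2h, a cornified envelope gene (0.52), Gml, a Ly6-like GPI-anchored protein gene (0.86), and Lrg1, a secreted acute-phase glycoprotein gene (0.97). Nearest to Ly6a were Batf2 (0.19), Ifi47 (0.23) and Il18bp (0.25), all known as interferon-induced. Nearest to Anxa1 were Lpo, lactoperoxidase (0.20), Wfdc18 (0.32) and Clca3b (0.34). Anxa3 was closest to Hoxa13, a homeobox gene of the hindgut (0.28), Gpr137b (0.29) and Pla2g2f (0.32). Clu was closest to Haao (0.15), Vpreb3, a B cell gene (0.18), and Abcg5 (0.19). For Msln the nearest were Phox2a, an autonomic neuron factor (0.14), Gfap, a glial filament gene (0.19), and Htr2b, a serotonin receptor gene (0.21). Near Areg were Plek2 (0.38) and Slc2a1, the glucose transporter GLUT1 gene (0.43). Ereg was nearest to Irs2 (0.14), Mboat2 (0.14) and Ptprg (0.15), and Hbegf to Elmsan1 (0.08), Pcdh1 (0.09) and Capn5 (0.13). A low gene moves little on this scale, so small differences around Ereg, Msln and Clu are to be read against their narrow ranges.

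Of 126 genes in 11 related lists, 105 were tested, and 0 of them were called in either direction by limma with Benjamini-Hochberg adjustment over all 12668 genes, where 0.182% of tested genes were called higher and 0% lower. At an unadjusted p under 0.05, 17 were higher and 4 lower, against 6.14% of all tested genes higher and 4.03% lower, and voom on the recovered reads also called 0. The list of other fetal-like or injury-repair epithelial genes had 13 higher and 2 lower values among 15 tested, 7 of them higher at an unadjusted p under 0.05 (6.14% of all tested genes), with a median log2 fold change of 1.41 against 0.04 over all tested genes. All 11 lists were chosen with earlier results of these data known, so nothing is read from such shares and medians. Anxa8, a further annexin, was at 125, 199 and 139 FPKM in libraries labelled IL10-KO, against 9.69, 1.21 and 9.14 FPKM in WT (log2 fold change 4.62, SE 0.63, limma adjusted p = 0.0687). The simple epithelial keratin gene Krt7 was at 25.7, 30.3 and 29.4 FPKM in libraries labelled IL10-KO, against 9.30, 10.9 and 7.19 FPKM in WT (1.56, SE 0.25, limma adjusted p = 0.0847). Neither gene overlapped between the labels, and neither passed the threshold. Emp1 and Cldn4 instead had their highest value in WT library 2, at 1166 and 347 FPKM.

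Relatives and partners of the annexins and of Ly6a were read in 3 lists. Of 9 other annexins tested, 6 had higher and 3 lower values (median 0.09), and Anxa8 and Anxa2 had the highest log2 fold changes among those 9. Anxa2 was at 409, 539 and 403 FPKM in libraries labelled IL10-KO, against 127, 256 and 82.5 FPKM in WT (1.68, SE 0.48, limma adjusted p = 0.345), and Anxa6 had a log2 fold change of -0.78 (limma adjusted p = 0.572). The annexin A1 receptor genes Fpr1 and Fpr2 and the annexin A1 partner S100a11 all had higher values (median 2.32). S100a11 was at 1887, 1703 and 2030 FPKM in libraries labelled IL10-KO, against 429, 369 and 331 FPKM in WT (limma adjusted p = 0.0744). Fpr2 had a log2 fold change of 2.91 (limma adjusted p = 0.261) and Fpr1 one of 1.83 (limma adjusted p = 0.34), and both are neutrophil and monocyte receptors. Among 9 other Ly6 family genes tested, 6 had higher and 3 lower values (median 0.77). Ly6c1 had a log2 fold change of 2.98 (limma adjusted p = 0.104), Ly6d one of 4.74 (limma adjusted p = 0.162) and Ly6i one of 2.91 (limma adjusted p = 0.179), while Ly6e had one of -0.04 (limma adjusted p = 0.986).

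No gene of the EGF receptor pathway passed the threshold. Egfr, the receptor for Areg and Hbegf, was at 4.85, 10.2 and 5.73 FPKM in libraries labelled IL10-KO, against 2.93, 4.45 and 2.93 FPKM in WT (log2 fold change 0.80, SE 0.31, limma adjusted p = 0.462). Erbb3 and Erbb2, which pair with it, had log2 fold changes of 0.29 and -0.02 (limma adjusted p = 0.921 and 0.995), and both were highest in WT library 2. Tgfa, another ligand, was at 4.50, 6.05 and 4.39 FPKM in libraries labelled IL10-KO, against 1.91, 15.9 and 1.22 FPKM in WT (log2 fold change 0.31, limma adjusted p = 0.917), the same order of the 6 libraries as Hbegf. Epgn and Btc had log2 fold changes of 0.94 and 0.51 (limma adjusted p = 0.492 and 0.705). Of the shedding genes, Rhbdf2 (iRhom2) had a log2 fold change of 0.45 (limma adjusted p = 0.561), Rhbdf1 one of -0.41 (limma adjusted p = 0.675) and Adam10 one of 0.55 (limma adjusted p = 0.708). Adam17, the main sheddase of these ligands, had one of 0.08 (limma adjusted p = 0.939). Of 18 feedback and response genes, 7 had higher and 11 lower values (median -0.21). Ier3, an immediate early gene, was at 24.2, 57.0 and 59.9 FPKM in libraries labelled IL10-KO, against 7.18, 18.8 and 12.9 FPKM in WT (1.77, SE 0.48, limma adjusted p = 0.325). The next by p were Phlda1 (0.95, limma adjusted p = 0.535) and Fos (1.04, limma adjusted p = 0.566), and the ERK feedback gene Dusp6 had a log2 fold change of 0.54 (limma adjusted p = 0.68).

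Genes of the Hippo pathway, which restrains YAP and TAZ, and crypt base stem cell genes were centred near or below the whole table. Of 15 Hippo core genes, 7 had higher and 8 lower values (median -0.02). Wwtr1, which encodes TAZ, was at 2.69, 1.94 and 3.12 FPKM in libraries labelled IL10-KO, against 4.75, 4.34 and 11.8 FPKM in WT (-1.05, SE 0.37, limma adjusted p = 0.445), and WT library 3, rich in muscle markers, was the highest. The kinase gene Lats2 had a log2 fold change of -1.04 (limma adjusted p = 0.432) and Tead4 one of 0.73 (limma adjusted p = 0.515). Of 20 YAP and TAZ target genes tested, 7 had higher and 13 lower values (median -0.57). Of the lower ones, Asap1, Crim1 and Nuak2 were highest in WT library 2 and the rest in WT library 3. The part of muscle or other stroma in these values was not tested. Nt5e, an ecto-nucleotidase, was at 8.68, 28.3 and 14.1 FPKM in libraries labelled IL10-KO, against 6.77, 0.704 and 2.37 FPKM in WT (2.20, SE 0.63, limma adjusted p = 0.345). Rbms3 had a log2 fold change of -0.85 (limma adjusted p = 0.479). The widely used targets Cyr61 and Ctgf had log2 fold changes of 0.88 and -0.78 (limma adjusted p = 0.511 and 0.565). Of 10 crypt base stem cell genes tested, 4 had higher and 6 lower values (median -0.20). Nkd1 had a log2 fold change of -1.46 (limma adjusted p = 0.459), Rgmb one of -0.94 (limma adjusted p = 0.539) and Ascl2 one of -1.02 (limma adjusted p = 0.619). Lgr5, the stem cell receptor of R-spondins, was too low to test, at 0.147, 0.161 and 0.430 FPKM in libraries labelled IL10-KO and 0.646, 0.155 and 0.874 FPKM in WT. With adjusted p-values this far from 0.05 and 3 libraries a group, these values do not show that the lists were alike between the labels.

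**Figure D5:**
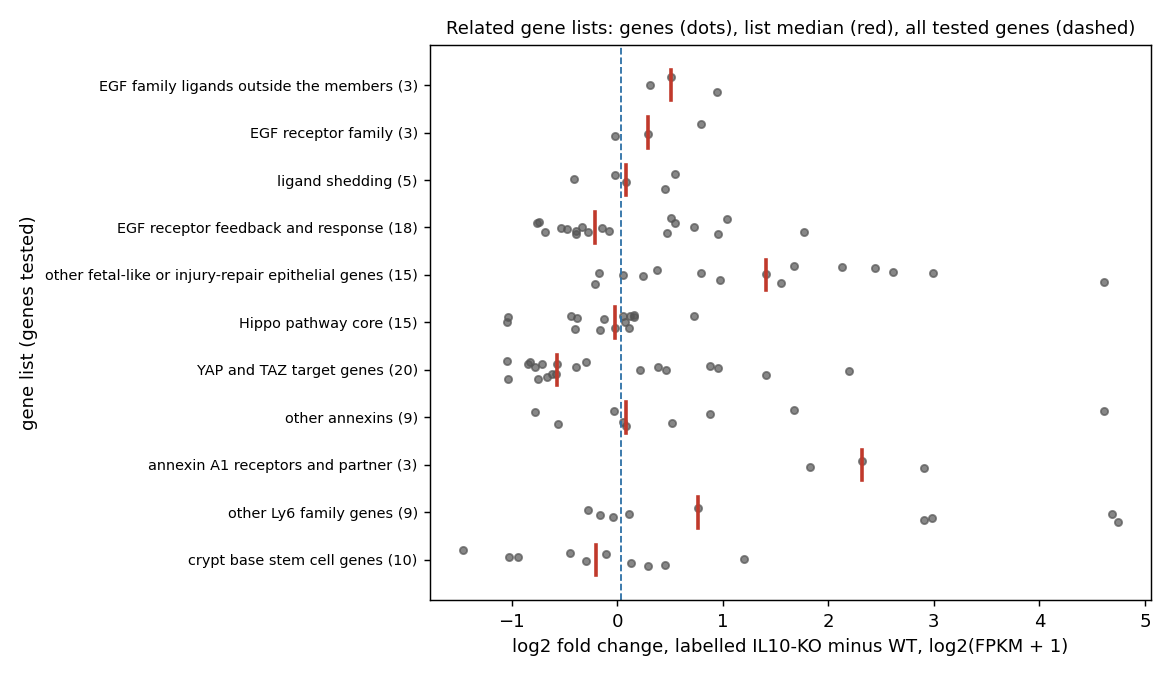
Log2 fold change (labelled IL10-KO minus WT, log2(FPKM + 1)) of each tested gene in the 11 related lists, with red bars for list medians and a dashed line for the median of all tested genes (0.04). The fetal-like list has a median of 1.41 and the annexin A1 receptor and partner list one of 2.32, while the Hippo core (-0.02) and YAP and TAZ target (-0.57) lists lie at or below the line. The lists were chosen with earlier results of these data known.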

How the data were processed

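Colon RNA was sequenced in 6 libraries, 3 labelled IL10-KO and 3 labelled WT, grouped by title. The authors deposited FPKM values per gene, with gene lengths per the file headers. Per the submitters' processing notes, Bowtie 0.12.2 and the builds hg38 and mm8 are named, without a role; the counting tool and its strand setting were not stated there. Of the 54409 table identifiers that GENCODE M21 holds, 98.3% had identical coordinates, so coordinates are given as GRCm38. In each library, FPKM multiplied by length fell on whole steps (tolerance 0.01) for 100% of nonzero values, and these steps were taken as recovered reads. Read numbers and the floor of 3 reads cover counting error only.

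Values were tested as log2(FPKM + 1) for the 12668 genes averaging 1 FPKM or more, using limma 3.58.1 in R 4.3.3 (eBayes with a mean trend), no replicate block, Benjamini-Hochberg adjustment over all tested genes and a threshold of 0.05; the fit was tested on simulated data. Other steps ran in Python 3.11.15 with pandas 2.3.3, numpy 2.4.6 and, for plots, matplotlib 3.10.9. No pair of libraries was a repeat (chi-square per gene of 60.7 or more). The genes, lists, markers and alternatives were chosen with earlier results of these data known. Named genes were the 9 genes and Il10, up to 3 genes per list with the smallest p, and the 3 nearest profiles per gene without predicted genes or receptor segments; other named genes were chosen after their values were seen. Some genes that this rule names are not reported here. Alternatives were other pseudocounts, filters and scalings, eBayes settings, array weights, a replicate block, voom, and leaving out each library.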

Additional observations from a re-analysis of the deposited data

How the results depend on the processing

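Of 12668 genes, 23 were called with all 6 libraries. That count was 9 with a pseudocount of 0.01, 4 with no filter, 46 with TPM, 331 with array weights and 2 with voom on recovered reads. It lay between 4 and 29 when 1 library was left out: 4 without library 2 and 7 without library 3 labelled IL10-KO, 12 without WT library 1 and 5 without WT library 3. With the replicate block it was 7. The correlation of deviations between same-numbered libraries was -0.15, 0.18 and 0.40. With 3 libraries a group this cannot settle whether the numbers pair the samples. Of the related list genes, 0 were called; the count was 1 with TPM (Anxa8), 1 without the eBayes trend (S100a11) and 12 with array weights, and 0 to 1 without 1 library. The median log2 fold change of the 9 genes, 1.29, was 0.96 with array weights and 0.77 to 1.38 without 1 library. All tested genes had a median of 0.15 with TPM and 0.13 at a mean FPKM of at least 5, where Ereg and Msln drop out. The number of the 9 above every WT library, 3, was 2 with trimmed mean scaling, TPM or quantile normalization, where Ly6a overlapped, and 1 relative to the epithelium markers, a count chosen after seeing the data. It was 3 to 5 without 1 library: Anxa3 joined without library 1 labelled IL10-KO, Anxa3 and Clu without WT library 1, and Areg and Hbegf without WT library 2. With 3 libraries a group, depth limits Msln most, at 3 and 4 reads in 2 libraries.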
